A study of Mus musculus with 8 samples.

Results

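The genes described here carry calcium into, out of and within the sarcoplasmic reticulum of heart muscle cells. They are 10 genes named by a fixed list (Atp2a2, Pln, Sln, Ryr2, Casq1, Casq2, Trdn, Jph2, Hrc and Slc8a1) and were found by gene symbol among 19933 genes that have a transcript cluster, the gene-level probe set of the array, with no second symbol. Hearts came from male C57BL/6 mice aged 6 weeks on normal chow, 4 wild type (WT) and 4 deficient in HDAC3 (KO), a histone deacetylase. The design text calls the KO line MCH3-KO and does not spell the name out, and no label states in which cells the gene was removed. Each heart was read on 1 Affymetrix Mouse Gene 1.0 ST array, and the sample titles mark the hearts of a group as separate biological replicates. Every level below is a log2 intensity and every difference is KO minus WT on that scale, with n = 4 arrays a group.

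At each heartbeat calcium entering through L-type channels opens the ryanodine receptor, which releases the calcium stored in the sarcoplasmic reticulum onto the myofilaments. The pump SERCA2 returns it to the store under the restraint of phospholamban and sarcolipin, and the sodium-calcium exchanger carries the rest out of the cell. Calsequestrin buffers calcium in the lumen, triadin ties it to the release channel, and junctophilin holds the store close to the transverse tubules.

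Hdac3 itself fell by 1.54 (SE 0.05, adjusted p = 9.19e-08), to 34.4% of the WT level, with each KO array below each WT array. The cardiomyocyte genes Myh6, Tnnt2, Tnni3, Actc1 and Ttn lay between 12.40 and 13.53 on every array. Array medians ran from 54.1 to 56.5 in intensity units. Of 15 macrophage markers 14 were above the lower limit for testing (log2 4.50) in both groups. All 14 were higher at an adjusted p under 0.05 (limma), against 10.8% of all genes tested. Adgre1 (1.54), Mrc1 (1.53) and Cd163 (1.48) led them. The summed intensity of the 15 was 3634 to 4157 in WT and 8072 to 10325 in KO hearts. The remaining marker, Aif1, passed the limit only through its KO level (4.32 in WT, 4.98 in KO). The summed intensity of 10 ventricular and general cardiomyocyte markers was 62182 to 63305 in WT and 60028 to 61127 in KO. Among them Actc1, Tnnt2 and Tnni3 lie above 13, where no tested gene differed by more than 0.12. The sums are therefore not a measure of cardiomyocyte content. In whole hearts fewer cells of a type and less RNA per cell cannot be told apart, and the part of these shifts in the results below was not tested.

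The comparison asks how the loss of HDAC3 moves the transcripts of this cycle. The luminal calcium-binding gene Hrc, the release channel gene Ryr2 and the cardiac calsequestrin gene Casq2 were lower in KO hearts. The pump regulator gene Sln was higher. Triadin (Trdn) was higher through its brightest probes and lower through another set. Of the 10 genes, each read by its brightest cluster, 2 were higher and 3 lower at an adjusted p under 0.05 (limma), and 5 did not pass. Of all 14950 genes tested 24.6% passed, 10.8% higher and 13.9% lower, so 5 of 10 stands beside a background of 24.6% and is given as a count only. KO and WT arrays did not overlap for 7 of the 10, against 28.6% of all genes tested. The median difference was -0.08 over the 10 genes and -0.0062 over all genes tested.

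**Figure D1:**
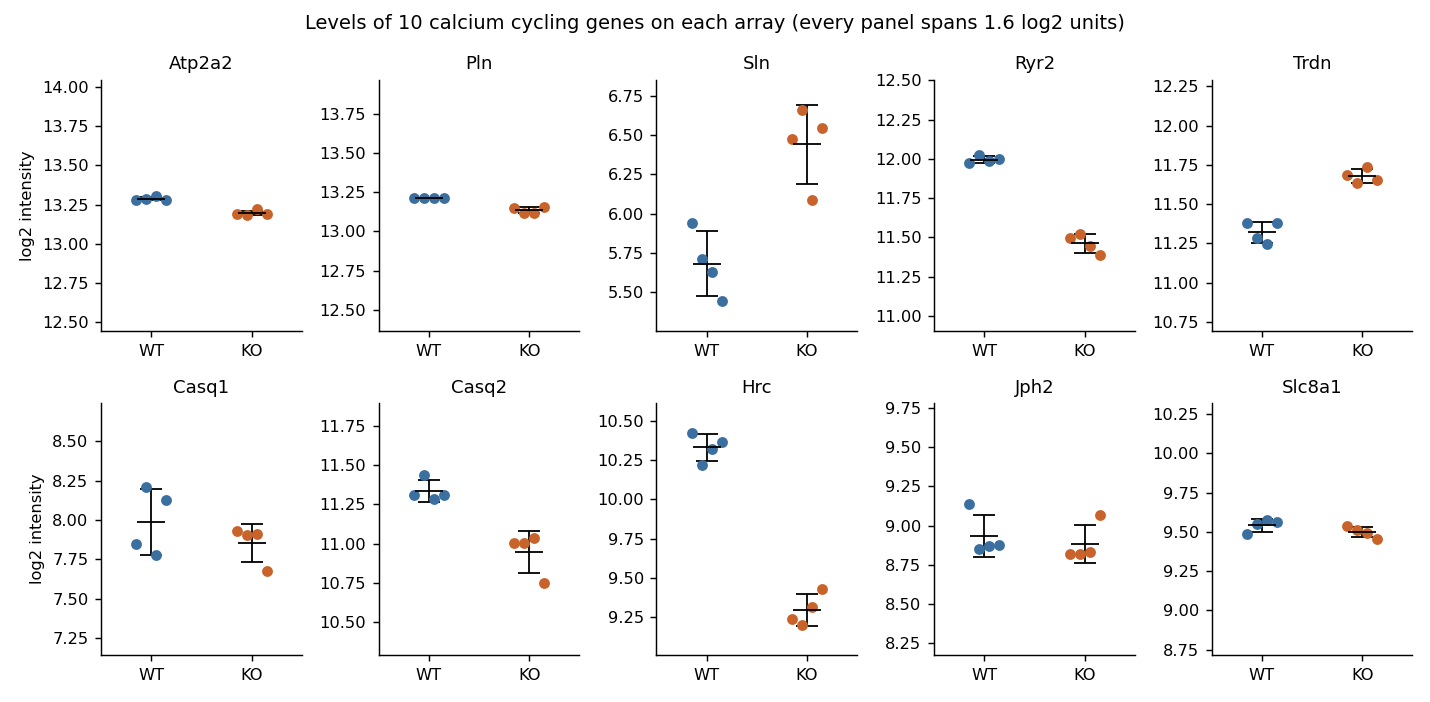
Log2 intensity of each of the 10 genes on the 4 WT (blue) and 4 KO (orange) arrays, with the mean and SD of each group as black bars, on vertical axes of equal span. Hrc, Ryr2 and Casq2 sit lower in all KO arrays and Sln and Trdn higher, while Atp2a2 and Pln move by less than 0.10. Trdn is drawn by its brightest cluster, and another of its clusters went the other way.

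**Figure D2:**
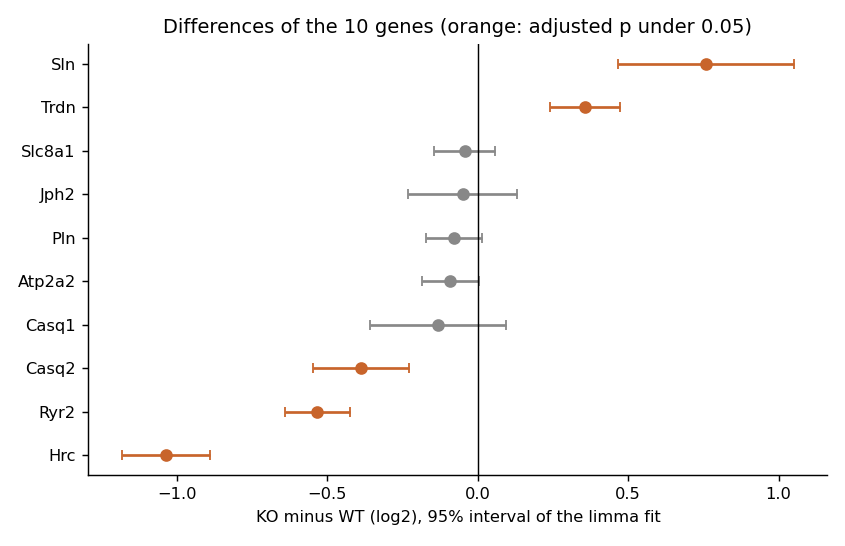
KO minus WT difference of each gene with its 95% interval from the limma fit. The intervals of Hrc, Ryr2, Casq2, Trdn (by its brightest cluster) and Sln lie clear of 0, and those of the other five reach it.

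Ryr2, the cardiac ryanodine receptor, read 11.97, 12.02, 11.98 and 12.002 in WT hearts and 11.50, 11.52, 11.45 and 11.39 in KO hearts. The groups were far apart, with each KO array below each WT array by more than the spread inside either group. The difference was -0.53 (SE 0.05, 95% interval -0.64 to -0.42, adjusted p = 3.27e-05), a level 69.2% of WT and the 311th largest fall of 14950. The skeletal release channel Ryr1 lay near the lower limit of the genes tested, at 4.89 ± 0.10 in WT and 4.90 ± 0.09 in KO (SD, n = 4), and did not pass (adjusted p = 0.916).

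Casq2 encodes the calsequestrin of heart muscle, the main calcium buffer of the store. WT hearts read 11.31, 11.44, 11.29 and 11.31 and KO hearts 11.01, 11.004, 11.04 and 10.75. Without overlap, KO replicate 4 was the lowest array and WT replicate 2 the highest. Casq2 fell by 0.39 (SE 0.07, 95% interval -0.55 to -0.23, adjusted p = 0.00294), to 76.5% of WT, the 685th largest fall. Leaving out KO replicate 4 gave -0.32.

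Hrc, the histidine-rich calcium-binding protein of the same lumen, binds triadin and influences both release and uptake. It had the largest change of the 10 genes. WT hearts read 10.42, 10.22, 10.32 and 10.37, and KO hearts 9.24, 9.20, 9.32 and 9.43, so the groups were separated by several times their own range. Hrc fell by 1.04 (SE 0.07, 95% interval -1.18 to -0.89, adjusted p = 4.28e-06), to 48.8% of WT. This was the 49th largest fall of the 14950 genes. Among KO hearts replicate 4 had the highest Hrc, although it had the lowest Ryr2 and Casq2, so these genes did not share 1 order among the KO arrays.

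Sequence upstream of the start was found in the RefSeq table of assembly GRCm38.p6 for 7 of the 10 genes. The 250 bases before the start of the 3 genes that fell are shown because these genes moved the same way. They lie at chr13:12106946-12107195 (minus strand, Ryr2), chr3:102086165-102086414 (plus strand, Casq2) and chr7:45335019-45335268 (plus strand, Hrc). Capitals mark matches, on either strand, to the nuclear receptor half-site AGGTCA, to CATTCC (the M-CAT element), to TATAAA, and to the consensus sites known as MEF2 and CArG.

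Ryr2: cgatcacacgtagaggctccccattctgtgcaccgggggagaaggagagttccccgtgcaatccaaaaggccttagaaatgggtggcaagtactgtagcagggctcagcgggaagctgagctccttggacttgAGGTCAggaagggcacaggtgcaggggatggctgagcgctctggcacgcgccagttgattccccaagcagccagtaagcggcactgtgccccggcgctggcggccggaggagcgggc

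Casq2: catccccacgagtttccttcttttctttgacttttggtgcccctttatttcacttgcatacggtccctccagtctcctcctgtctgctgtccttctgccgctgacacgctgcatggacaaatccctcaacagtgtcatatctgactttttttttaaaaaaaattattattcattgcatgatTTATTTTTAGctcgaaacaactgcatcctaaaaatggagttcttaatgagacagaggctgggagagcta

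Hrc: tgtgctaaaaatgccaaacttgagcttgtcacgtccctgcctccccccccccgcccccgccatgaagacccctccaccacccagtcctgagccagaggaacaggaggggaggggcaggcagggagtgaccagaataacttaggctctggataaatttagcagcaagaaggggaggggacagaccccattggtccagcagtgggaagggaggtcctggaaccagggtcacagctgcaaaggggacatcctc

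Ryr2 held 1 half-site AGGTCA, a motif found in 14.0% of 32851 windows of the same length over all genes. Casq2 held 1 MEF2 match, found in 2.92% of windows. Hrc held none of the 5 motifs. CATTCC occurred in 12.6% of windows, TATAAA in 12.4% and CArG in 1.47%, and none of the 3 genes had them. GC content was 63.2% for Ryr2, 41.6% for Casq2 and 59.6% for Hrc, with a median of 52.4% over all windows. The E-box CANNTG, not capitalised, occurred 2 times in Ryr2, 2 times in Casq2 and once in Hrc, and in 66.2% of all windows. No 2 of the 3 genes shared a capitalised motif in this stretch.

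Casq1, the calsequestrin of skeletal muscle, read 7.84, 8.21, 7.78 and 8.12 in WT and 7.93, 7.90, 7.91 and 7.68 in KO hearts. The groups overlapped, and the difference of -0.13 (95% interval -0.36 to 0.095, adjusted p = 0.406) did not pass.

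Triadin anchors calsequestrin at the junction and is made in shorter forms in heart and longer ones in skeletal muscle, through splicing that leaves the start of the protein in common. The array reads Trdn with 19 clusters. By its brightest cluster (10362420) Trdn was 11.38, 11.29, 11.24 and 11.38 in WT and 11.68, 11.63, 11.74 and 11.66 in KO hearts. Every KO array was above every WT array, and the rise was 0.36 (SE 0.05, 95% interval 0.24 to 0.47, adjusted p = 0.00069). The platform table lists that cluster with a single accession. Cluster 10362404, which it lists with 5, was almost as bright and went the other way, at 11.15, 11.12, 11.08 and 11.14 in WT and 10.86, 10.80, 10.90 and 10.66 in KO hearts. Here every KO array was below every WT array, and the fall was 0.32 in a fit over all 16259 single-gene clusters above the same limit (difference -0.32, SE 0.06, adjusted p = 0.00335). In that fit 10.8% of clusters passed higher and 13.7% lower.

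Of the 19 Trdn clusters 17 were tested, and 16 of these were above the limit of 4.50 in both groups. Of the 16, 15 rose and 1, cluster 10362404, fell. The 15 are each listed with 1 accession and cluster 10362404 with 5, so this count gives no direction for the gene. The other tested cluster, 10362456, reached the test only through its KO level (4.34 in WT, 5.36 in KO), so its difference is not counted. The 4 risers with WT levels above 10 rose by 0.34 to 0.37, and the other 11, all dimmer, by 0.57 to 1.18. Cluster 10362436 may stand for the dimmer ones: 9.21, 9.34, 9.34 and 9.27 in WT became 10.07, 9.99, 10.22 and 10.16 in KO (0.82, SE 0.06, adjusted p = 1.51e-05). With cluster 10362456 included, KO replicate 3 was the highest array in 15 of 16 clusters with a higher KO mean. The clusters belong to 1 gene and to the same 8 RNA samples, so they are not replicates of each other. The difference within each array between the brightest cluster and cluster 10362404 was 0.23, 0.17, 0.17 and 0.24 in WT and 0.82, 0.83, 0.84 and 0.999 in KO hearts. The 2 parts of the gene therefore changed unequally in every KO heart. The exons that each cluster reads were not analysed here.

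**Figure D3:**
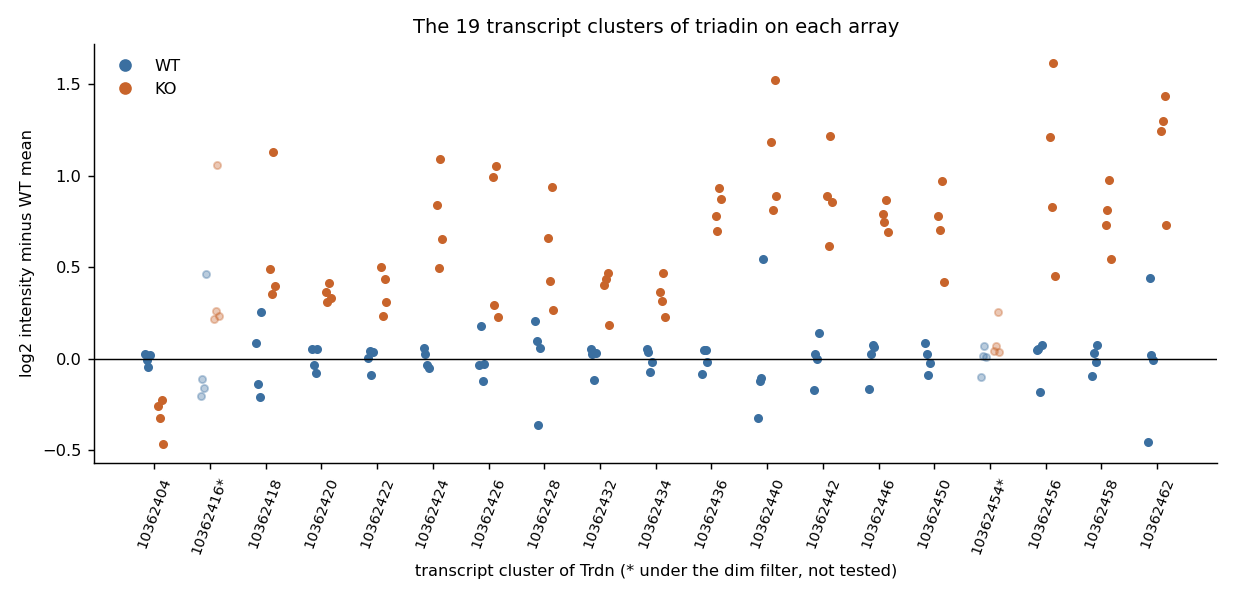
Log2 intensity minus the WT mean for each of the 19 Trdn clusters, in the order of their identifiers, with WT arrays in blue and KO arrays in orange, and with pale points for the 2 clusters under the limit for testing. Cluster 10362404 is the one whose KO arrays lie below 0, and the other tested clusters have all KO arrays above their WT arrays.

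Since Casq1 and the longer triadin forms belong to skeletal muscle, markers of that tissue were read too. Of 15 such markers 10 were above the limit for testing in both groups, and of these 2 were lower (Mylk4, -0.79, and Mybpc2, -0.40) and 0 higher. Over all genes tested 13.9% passed lower and 10.8% higher. Mybpc1 reached the test only through its KO level (4.35 in WT, 4.74 in KO). The median difference over the 11 tested was 0.0038. The fast-fibre genes Myh1, Myh4 and Mylpf and the factor Myf6 were under the limit for testing in these hearts, and Actn3 (4.79 in WT, 4.83 in KO) and Myh2 (4.87 and 4.81) were just above it. In the same hearts Mylk4 read 10.85 in WT, and the part of skeletal muscle in its fall was not tested. The list's summed intensity was 2312 to 2554 in WT and 1568 to 1676 in KO. Mylk4 alone gave 1723 to 2003 of it in WT and 1039 to 1111 in KO, and without Mylk4 the sum was 551 to 602 in WT and 517 to 565 in KO, with overlap.

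Sarcolipin (Sln) is a small membrane protein that restrains the calcium pump and is abundant in atria. It read 5.94, 5.71, 5.63 and 5.45 in WT and 6.47, 6.66, 6.08 and 6.55 in KO hearts, without overlap. WT replicate 4 was the lowest array and KO replicate 3 the lowest of its group. Sln rose by 0.76 (SE 0.13, 95% interval 0.47 to 1.05, adjusted p = 0.00196), to 169% of WT, the 226th largest rise. Leaving out single arrays gave 0.68 to 0.88.

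Other atrial genes varied widely from heart to heart. The summed intensity of 10 atrial markers was 11393, 10255, 9756 and 4398 in WT and 12235, 13713, 9094 and 11252 in KO hearts. None of the 10 passed the test, and their median difference was 0.13. Bmp10, a growth factor gene of atrial muscle, read 9.76, 4.03, 9.78 and 4.26 in WT and 10.21, 10.78, 4.85 and 9.06 in KO. The atrial light chain Myl4 was 12.06 ± 0.71 in WT and 12.81 ± 0.12 in KO (SD, n = 4; adjusted p = 0.0822), and Myl7 was 10.13 ± 0.99 and 9.76 ± 0.47 (adjusted p = 0.602). Within WT, Sln followed the same order of hearts as the atrial sum. In KO hearts the highest and the lowest were the same by both. KO replicate 3 had a lower atrial sum than WT replicates 1, 2 and 3, and a higher Sln than any WT heart. The sum is on a linear scale, so Myl4, the brightest of the 10 markers in both groups, weighs most in it. Myl4 separated the groups as Sln did. It read 12.64 in KO replicate 3, its lowest KO heart, and 12.51 in WT replicate 1, its highest WT heart. The other atrial markers overlapped between the groups, and Myl7 in KO replicate 3 (9.08) was below WT replicates 1, 2 and 3. In KO replicate 3 Myl4 and Myl7 therefore stood differently against the WT hearts. The part of atrial content in the Sln difference was not tested.

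**Figure D4:**
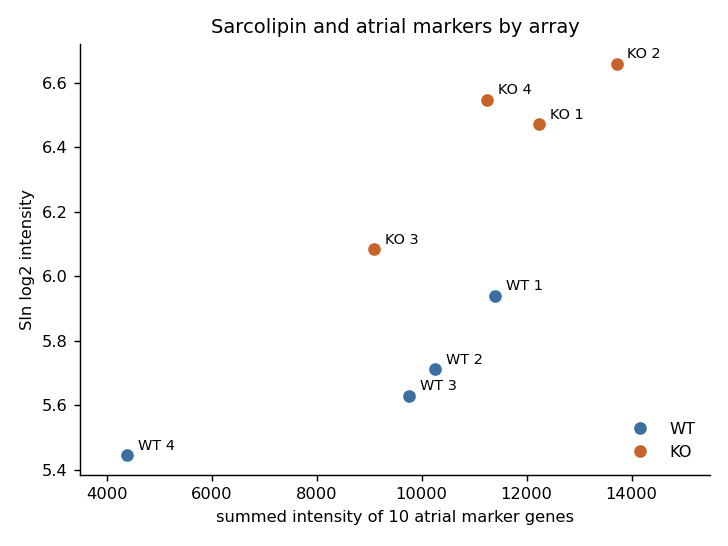
Sln log2 intensity against the summed intensity of 10 atrial marker genes on each array, WT in blue and KO in orange. WT replicate 4 has the lowest value on both axes (4398 and 5.45). KO replicate 3 lies above WT replicates 1 to 3 in Sln at a smaller atrial sum. The atrial marker Myl4, not drawn alone and the brightest part of the sum, is higher in every KO heart than in every WT heart.

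The calcium pump and its main regulator lay at the bright end of the signal range, with small differences. Atp2a2, the gene of SERCA2, read 13.28, 13.29, 13.30 and 13.28 in WT and 13.19, 13.19, 13.22 and 13.19 in KO hearts. The groups did not overlap, yet the difference of -0.09 (SE 0.04, 95% interval -0.18 to 0.0033) did not pass (adjusted p = 0.153). Pln, phospholamban, was 13.21, 13.21, 13.21 and 13.22 in WT and 13.15, 13.11, 13.12 and 13.15 in KO, also without overlap (-0.08, 95% interval -0.17 to 0.016, adjusted p = 0.22). With an intensity trend and robust variances in limma, which lets bright genes have a smaller expected spread, both passed (adjusted p = 0.00774 for Atp2a2 and 0.0198 for Pln, with ranges over the alternatives of 0.00774 to 0.275 and 0.0198 to 0.534). Only 14 genes tested had a mean level above 13, and none of them differed by more than 0.12, with an SD of differences over these genes of 0.05 against 0.26 at levels of 11 to 12.

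Slc8a1, the sodium-calcium exchanger, read 9.48, 9.55, 9.58 and 9.56 in WT and 9.54, 9.51, 9.49 and 9.46 in KO hearts. The groups overlapped, and the difference of -0.04 (95% interval -0.15 to 0.059, adjusted p = 0.562) did not pass. Its dimmer cluster (10453231) differed by 0.17 (adjusted p = 0.166), and the mean of both gave 0.064, so no direction is given for this gene.

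Jph2, junctophilin 2, was 9.14, 8.85, 8.87 and 8.88 in WT and 8.82, 8.82, 8.83 and 9.07 in KO hearts. The highest array of each group stood apart from the other three, the groups overlapped, and the difference was -0.05 (95% interval -0.23 to 0.13, adjusted p = 0.726). Without WT replicate 1 it was 0.019. The dimmer cluster of the gene (10489357) had no overlap and differed by -0.23 (SE 0.08), at an adjusted p of 0.0515.

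Levels of different genes cannot be set against each other on arrays, but the change of a pair can. The difference of Pln minus Atp2a2 moved by 0.012 (exact permutation p = 0.486, two-sided, 70 assignments of arrays), but both genes lie above 13, where no tested gene differed by more than 0.12, so a small value here does not show that the pair kept its ratio. The same holds for Atp2a2 in the next pairs. Slc8a1 relative to Atp2a2 moved by 0.05 (exact p = 0.229). Sln relative to Atp2a2 rose in all KO arrays against all WT arrays, by 0.85 (SE 0.17), and Trdn by its brightest cluster relative to Ryr2 by 0.89 (SE 0.06). Both had an exact permutation p of 0.0286, the smallest that 4 against 4 arrays allow, which became 0.0714 with Benjamini-Hochberg adjustment over the 5 pairs. In both pairs each gene separated the groups alone, and the genes went opposite ways. That fixed this p in advance, so it adds nothing to the single-gene results. By cluster 10362404 the change of Trdn relative to Ryr2 was 0.22. Casq2 relative to Ryr2 changed by 0.15 (SE 0.05, exact p = 0.0571, adjusted 0.0952), with KO replicate 4 inside the WT range. No pair passed at 0.05 after adjustment.

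The wider calcium pathway was described through 6 lists of 92 further genes, 81 of them measured and tested. Of these 12 were higher and 19 lower, with a median difference of 0.012, against 10.8% and 13.9% of all genes.

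Among 17 tested genes of pump isoforms, pump regulators and the kinases and phosphatases that act on them, 1 was higher and 5 lower (median -0.08). The calcium/calmodulin kinase genes Camk2b (-0.70, SE 0.10, adjusted p = 0.000502) and Camk2a (-0.48) fell, as did Camk2g (-0.36, adjusted p = 0.0113, named after its values were seen). Camk2d, the main cardiac isoform, did not pass and read 10.11 ± 0.06 in WT and 10.14 ± 0.05 in KO (SD, n = 4). Ppp1r3a, a phosphatase 1 targeting subunit, rose by 0.38. The pump of fast skeletal muscle, Atp2a1, differed by 0.09 (adjusted p = 0.55).

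Among 16 partners and relatives of the release channel 3 were higher and 4 lower (median 0.04). The 2 calmodulin genes named here went opposite ways: Calm2 rose by 0.45, and Calm3, named after its values were seen, fell by 0.28 (adjusted p = 0.00234). Fkbp1b, the channel-stabilising calstabin 2, rose by 0.34 (SE 0.08, adjusted p = 0.0126), from 4.84 to 5.18, near the lower limit for testing (4.50). S100a1, a calcium sensor that binds the channel and the pump, fell by 0.32. Asph, which gives rise to junctin, the companion of triadin, fell by 0.23 (adjusted p = 0.012).

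Of 12 other genes of the lumen and membrane of the store 4 were higher and 0 lower (median 0.05). They were Hspa5 (0.43), Hsp90b1 (0.39) and Calr (0.30, named after its values were seen), chaperones of the endoplasmic reticulum of all cells, and Tmem38b (0.42), a potassium channel of that membrane. Its relative Tmem38a, also listed, had no cluster of its own and was not measured. Srl, the muscle gene sarcalumenin, read 11.26 ± 0.04 in WT and 11.38 ± 0.02 in KO (SD, n = 4) and did not pass (adjusted p = 0.0708). The summed macrophage markers given above were higher in the same KO hearts, and a link between them and the chaperone rises was not tested.

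At the junction of transverse tubule and store 2 of 14 genes were higher and 6 lower (median -0.10). Cacna2d1, an accessory subunit of the L-type channel, had a difference of -0.80 (SE 0.05) and its pore gene Cacna1c one of -0.45 (SE 0.05, adjusted p = 9.03e-05). Jph1, the skeletal junctophilin, fell by 0.31. Bin1, which shapes transverse tubules, rose by 0.69 (SE 0.09) and the titin cap gene Tcap by 0.46.

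Of 11 genes of calcium transport over the plasma membrane 1 was higher and 1 lower: the store-operated channel gene Orai2 (0.59, SE 0.19, adjusted p = 0.0473, with overlap of the groups) and Fxyd1, phospholemman, which regulates the sodium pump (-0.28). Of 11 mitochondrial calcium genes 1 was higher and 3 lower, with the uniporter pore Mcu at -0.26, its essential subunit gene Smdt1 at -0.19 and Ghitm at 0.19.

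**Figure D5:**
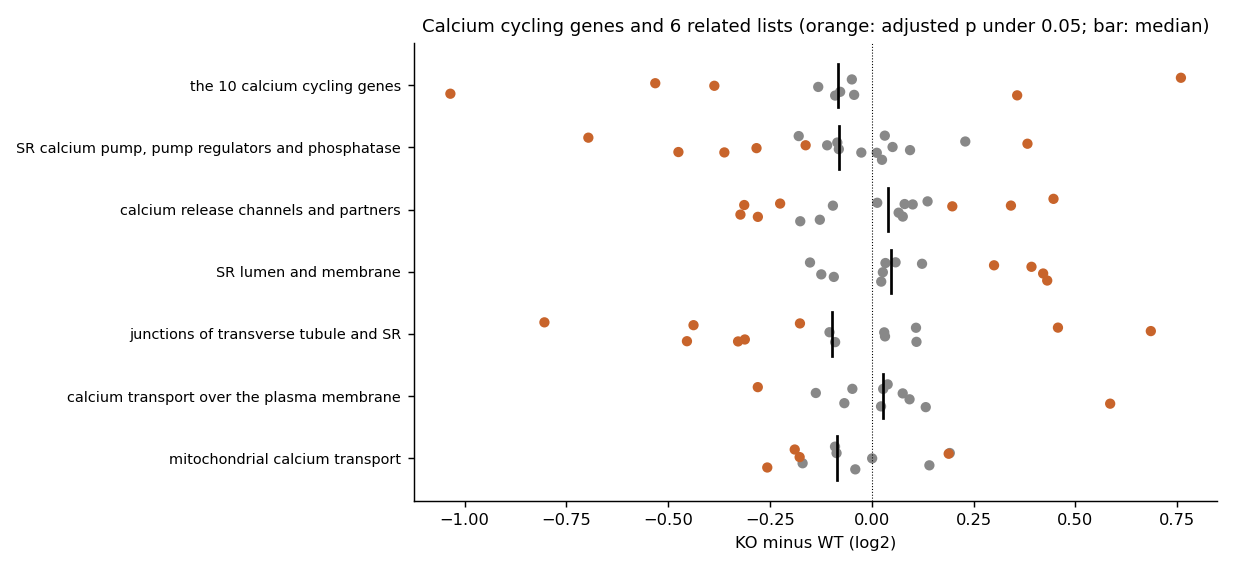
KO minus WT differences of the 10 calcium cycling genes and of the tested genes in 6 related lists, 1 point a gene, orange where the adjusted p was under 0.05, with a black bar at the median of each list. Medians run from -0.10 to 0.05, and the store lumen list is the one with rises and no falls among its passing genes.

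For each gene that passed, the tested genes most like it over the 8 arrays were listed by Pearson correlation of log2 levels, which is dominated by the difference between the groups that these genes share. Hrc was most like Sgca (0.996), a sarcoglycan of the muscle membrane, and Lrpprc (0.995). Ryr2 was most like Akr1b10 (0.999) and Gtf2i (0.998). Casq2 was most like Pvr (0.994) and Hspb6 (0.994), a small heat shock protein of muscle. Trdn was most like Sdf2l1 (0.993) and Pycard (0.992), and Sln most like Ctnna1 (0.987) and Inppl1 (0.978).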

How the data were processed

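The submitters' processing notes name Partek and RMA without versions or roles. The authors deposited 1 intensity per transcript cluster and array, on a linear scale from 3.57 to 16629, for 27541 clusters. No source states how RMA values, usually logarithmic, became linear, and scan batches and detection calls were not analysed here. Log2 was taken with no further normalisation. Exactly 1 symbol was paired with 21631 clusters. The brightest cluster by mean over all arrays stood for a gene, and 4983 genes under the 25th percentile (log2 4.50) of that mean were left out; genes that passed with 1 group under it are named where counted.

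Groups were compared with limma 3.58.1 in R 4.3.3 (lmFit, eBayes, two-sided, no covariate), adjusted by Benjamini-Hochberg over all 14950 genes at 0.05. The fit and the permutation test were tested on simulated data. Figures used matplotlib 3.10.9. The members, the gene lists and the rule for naming genes (every member, up to 3 passing genes of each list with the largest differences, and a short fixed set) were chosen with earlier results of these data known. The use of the cluster with most accessions was added after seeing that Trdn clusters disagreed. Of the 92 genes of the related lists, 81 were measured and the others were not analysed here.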

Additional observations from a re-analysis of the deposited data

Results flagged for a closer look

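In groups of 4 arrays, a highest or lowest array whose gap to its neighbour was a larger share of the group's range than Dixon's critical value for 4 was singled out. Of 68 groups examined (each gene, Trdn cluster and pair, by genotype) 11 were, where chance gives about 3.4, and groups that share arrays are not independent. KO replicate 4 stood apart 4 times: at 7.68 for Casq1 (others 7.90 to 7.93), at 10.75 for Casq2 (others 11.004 to 11.04), at 9.07 for Jph2 (others 8.82 to 8.83) and at 8.50 for Hdac3 (others 8.59 to 8.59). WT replicate 2 was high for Casq2 at 11.44, and WT replicate 1 for Jph2 at 9.14. Among Trdn clusters, KO replicate 3 was high in 10362416 (4.15) and 10362454 (2.69), both under the limit for testing, and WT replicate 4 in 10362416 (3.56). WT replicate 3 was low in 10362432 (10.20) and 10362456 (4.16).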

How the results depend on the processing

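Each difference of the 10 genes was recomputed under 19 alternatives. Hrc (-1.09 to -1.003), Ryr2 (-0.55 to -0.50), Casq2 (-0.42 to -0.32) and Sln (0.61 to 0.88) kept their direction and passed in all of them. None of these genes has a second cluster, so the settings on the choice of cluster could not change their differences. Trdn reversed to -0.32 (adjusted p = 0.00321) through the cluster with the most accessions, chosen after seeing the data, which left 1 of the 10 genes higher and 4 lower, and reached 0.61 with the mean of its clusters. With an intensity trend and robust variances Atp2a2 (-0.0901) and Pln (-0.0778) passed, so 5 genes were lower. Slc8a1 changed sign to 0.064 with the mean of its clusters. Leaving out single arrays gave -0.11 to 0.019 for Jph2. The count of all genes past the threshold was 2210 at 0.01, with a range of 2210 to 4529 over the alternatives and 2869 to 3621 without single arrays. Leaving out KO replicate 4 took 3 pairs past 0.05 (adjusted exact p = 0.0476), because 3 then reached the smallest p possible; over single arrays left out, Sln relative to Atp2a2 ranged from 0.77 to 0.98, Casq2 relative to Ryr2 from 0.11 to 0.19 and Trdn relative to Ryr2 from 0.86 to 0.92.

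Same-numbered arrays did not deviate together (r = -0.04, 0.03, -0.04 and 0.08), and WT replicate 1 was most like KO replicate 4 (0.23). With 4 arrays a group these values cannot exclude a factor shared by same-numbered hearts, and no label states one. With the replicate number as a block 3382 genes passed, and 2 of the 10 genes were higher and 3 lower, with no call changed. For the pairs, the block allows no p below 0.125. The number of arrays, an unknown signal over background and narrow differences among the brightest genes limit precision.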

Other observations

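Other cell type lists in the same hearts gave these values, given as counts only beside 10.8% higher and 13.9% lower over all genes tested. Of 9 fibroblast markers 3 were higher and 0 lower: Postn (0.64), Lum (0.38) and Col1a2 (0.23). Of 7 endothelial and 4 tested adipocyte markers 0 passed in either direction. Of 15 immediate early genes 3 were higher, Btg2 (0.55), Egr2 (0.45) and Fosl2 (0.20), and 0 lower. Of 10 ventricular and general cardiomyocyte markers 3 were lower and 0 higher. The ventricular transcription factor gene Irx4 had the largest of these differences, from 8.61 ± 0.23 in WT to 7.47 ± 0.06 in KO (SD, n = 4; -1.14, SE 0.10), and Myl2 (-0.20) and Mybpc3 (-0.15) were lower by less.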
